A study of Homo sapiens with 20 samples.

Results

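Lysosome and autophagy genes were followed in rhabdomyosarcoma cells in which KDM4 histone demethylases had been knocked down or inhibited. The members were chosen by gene symbol from a list of 43 genes of the lysosomal membrane, the lysosomal hydrolases, the proton pump, the MiT/TFE transcription factors and the autophagy pathway. Of these 43 genes, 41 had a named probe set among the 17687 genes measured, each represented by its probe set with the highest mean, while NPC2 and NEU1 were not analysed here. RNA was measured on 20 Clariom S arrays, and every value is a log2 signal, so that a difference of 1 is a doubling. Levels of different genes were read by different probes and were not set against each other.

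Rh30 and Rh41 are cell lines of alveolar rhabdomyosarcoma, a childhood tumour of the muscle lineage, and both carry the PAX3-FOXO1 fusion. Rh30 received a control hairpin RNA or a hairpin against KDM4B for 72 h (2 arrays each), or a control siRNA or siRNA against KDM4C for 72 h (2 each). Both lines received the solvent DMSO or the KDM4 inhibitor QC6352 at 200 nM for 48 h (3 arrays in each of these 4 groups). No rescue was among the groups, the labels set no more hairpins or siRNAs apart, and 1 dose and 1 time of the drug were measured, so target and off-target effects cannot be told apart.

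For 10 Rh30 arrays the labels give conflicting groups, which touches the siRNA and the Rh30 drug results. By title, 3 of them were Rh30 with QC6352, whereas their sample names read siControl 2, siKDM4C 1 and siKDM4C 2. The groups here follow the titles, and counts by sample name stand beside each comparison. The title of 1 array names a KDM4C shRNA where the source name of that array reads siKDM4C, and this array was taken by its source name as replicate 2 of the KDM4C siRNA. The 4 hairpin arrays and the 6 Rh41 arrays carry labels that do not conflict. The median of an array was 7.22 to 7.25 in Rh41, 6.95 to 6.99 in Rh30 outside the siRNA groups and 6.72 to 6.75 within them, and control probe sets for background had medians of 3.64 to 4.01. KDM4B lay at 6.01 and 6.15 with its hairpin against 6.74 and 7.30 in the controls (adjusted p = 0.012), and KDM4C at 6.25 and 6.32 with its siRNA against 6.48 and 6.54 (adjusted p = 0.651).

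Lysosomes are acidic organelles in which hydrolases degrade protein, lipid, glycogen and other polymers, and a proton pump, the V-ATPase, keeps them acidic. In autophagy, the ULK1 kinase and the Beclin 1 lipid kinase complex start a membrane that is decorated with ATG8 proteins, encloses cargo bound by receptors such as p62, and fuses with the lysosome. TFEB, TFE3 and MITF are related factors that enter the nucleus when mTORC1 is inactive and bind an E-box, CACGTG, within the CLEAR element found near the start of many lysosomal genes.

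That E-box was searched in RefSeq promoter windows of GRCh38.p14, which run from 250 bases before to 50 bases after a start site. It was not used to choose the members, but it is known from lysosomal genes. A higher share among lysosomal members is therefore no independent result. A window was given for 34 of the 41 members, and LAMP2, PSAP, ATP6V1H, HEXA, CTSB, ATP6V1A and UVRAG had none. The motif CACGTG reads the same on both strands. It stood in a window of 8 of the 34 members (23.5%) and of 2396 of the 27305 genes with a window (8.77%). The longer form TCACGTG, on either strand, which holds the same core, stood in 7 of 34 members (20.6%) and in 4.49% of all genes. The 8 members with CACGTG were LAMP1, MCOLN1, CTSA, CTSD, CTSF, GAA, ATP6V0D1 and CD63. The stretches that hold the motif are shown for the 5 of them whose drug response differed between the lines, each ending at the base before the start site, 5′ to 3′ on the strand of the gene and with CACGTG in capitals. They are MCOLN1 at chr19:7522573-7522623 (+), CTSA at chr20:45891283-45891334 (+), GAA at chr17:80101495-80101580 (+), LAMP1 at chr13:113297037-113297238 (+) and CTSF at chr11:66568607-66568739 (-).
MCOLN1: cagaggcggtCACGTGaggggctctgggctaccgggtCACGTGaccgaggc
CTSA: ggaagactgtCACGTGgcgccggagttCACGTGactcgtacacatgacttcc
GAA: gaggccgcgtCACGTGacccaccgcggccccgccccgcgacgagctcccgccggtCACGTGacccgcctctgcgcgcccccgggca
LAMP1: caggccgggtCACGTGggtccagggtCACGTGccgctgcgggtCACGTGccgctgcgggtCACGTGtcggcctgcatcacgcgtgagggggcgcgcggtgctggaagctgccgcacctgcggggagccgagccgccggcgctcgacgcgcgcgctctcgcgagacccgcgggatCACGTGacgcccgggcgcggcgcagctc
CTSF: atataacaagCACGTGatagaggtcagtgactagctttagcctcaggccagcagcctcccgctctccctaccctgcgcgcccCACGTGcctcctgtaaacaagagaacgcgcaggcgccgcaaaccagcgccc
MCOLN1, CTSA, GAA and CTSF each hold 2 copies upstream of the start, and LAMP1 holds 5. A match is a description of the letters, not of a bound site.

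Most of these genes were higher in Rh30 with QC6352. Of 41 members, 28 rose and 2 fell past the threshold, an adjusted p under 0.05 in a limma fit of all 20 arrays. Over all 17687 genes, 19.9% rose, 16.5% fell and 36.3% changed in either direction. The median difference was 0.47 for the members and 0.05 for all genes. The rise ran through most roles, with 5 of 7 membrane proteins, 10 of 13 hydrolases and their cofactors, 4 of 4 proton pump subunits, 1 of 3 transcription factors, 2 of 3 receptors, 2 of 4 ATG8 proteins and 4 of 7 genes of the autophagy machinery higher. The 11 members that did not pass lay between -0.26 and 0.19. In bulk RNA, fewer cells of a type and less RNA per cell cannot be told apart. By sample name, 0 of the 41 members passed in this comparison in limma (3 at an unadjusted p under 0.05), as did 0.503% of all genes.

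**Figure D1:**
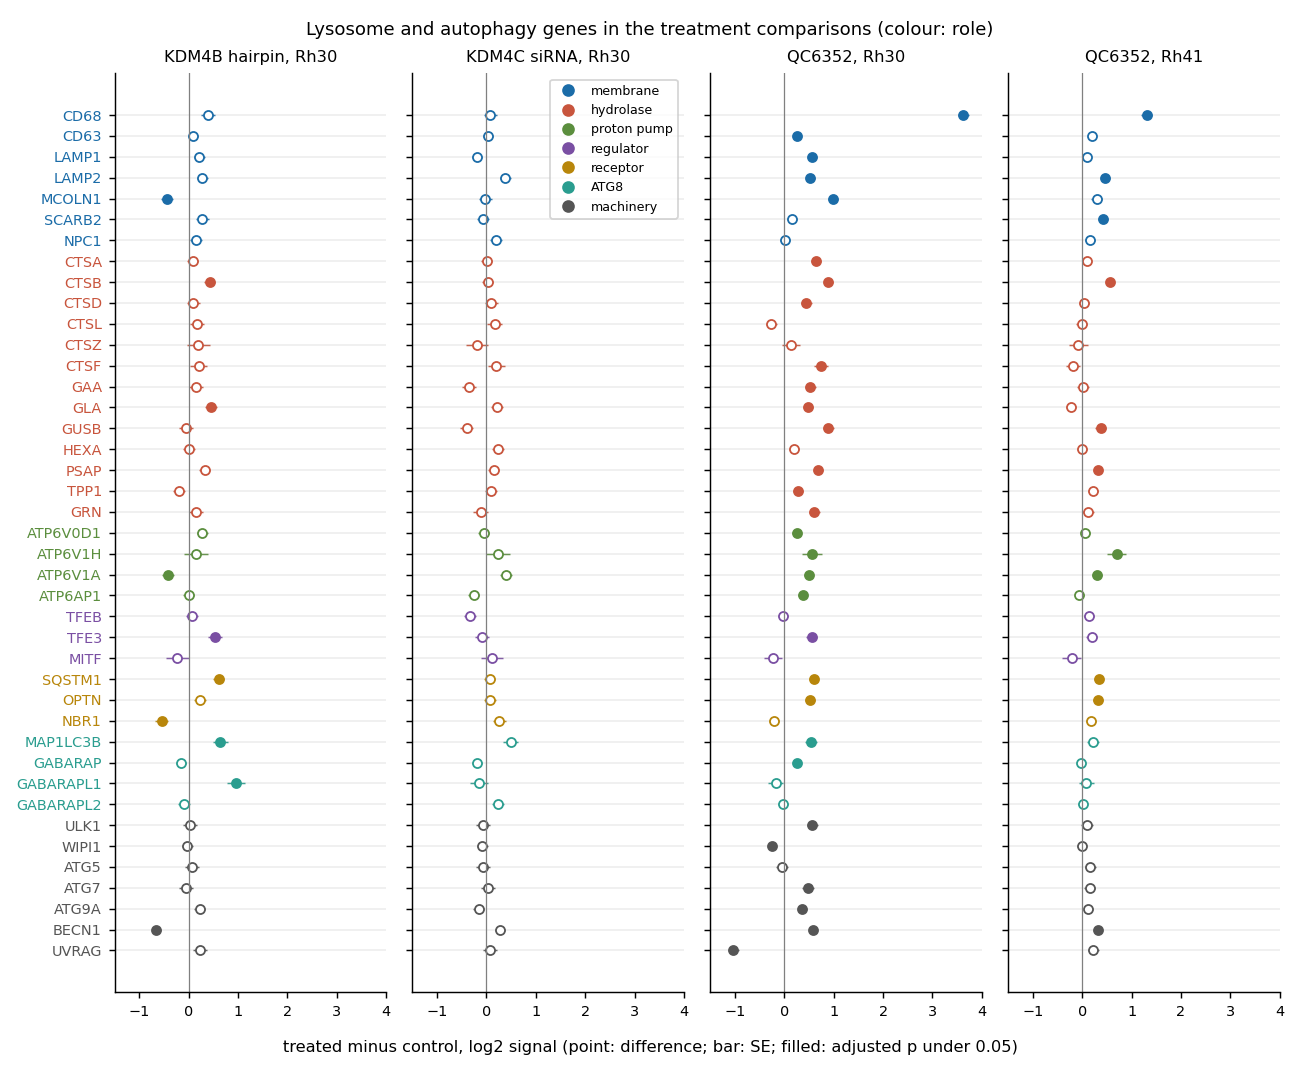
Log2 difference of each of the 41 members (rows, coloured by role) in the 4 treatment comparisons, with bars for the SE and filled points for an adjusted p under 0.05. The points of QC6352 in Rh30 lie mostly to the right of 0, with CD68 at 3.62 and UVRAG at -1.04, and no siRNA point is filled.

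CD68, a heavily glycosylated lysosomal membrane protein of the LAMP family that is widely used as a macrophage marker, had the largest change of all members. Its signal was 6.79, 6.75 and 6.60 in the Rh30 arrays with DMSO and 10.36, 10.35 and 10.29 in those with QC6352. The difference was 3.62 ± 0.11 (SE), or 12.3-fold (adjusted p = 4.98e-14, n = 3 and 3), and was the 4th highest of all 17687 genes. In Rh41 the arrays read 6.35, 6.35 and 6.26 with DMSO and 7.81, 7.47 and 7.60 with QC6352. CD68 rose there by 1.31 ± 0.11, or 2.48-fold (adjusted p = 1.14e-07). In neither line did the groups overlap. Every other Rh30 array lay at 6.18 to 7.26, so the 3 arrays titled QC6352 stood apart from all 11 others whichever label they carry.

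Markers of macrophages and other blood cells were looked at beside CD68. Of 15 such markers, 2 rose with QC6352 in Rh30 (13.3%, against 19.9% of all genes). They were CD3E, by 0.50 ± 0.15, and the CSF1 receptor CSF1R, by 0.50 ± 0.19. In Rh41 1 rose (6.67%, against 10.9% of all genes), LYZ (lysozyme) by 0.81 ± 0.15. With so few markers, these counts do not set them apart from all genes. The median difference of the 15 markers was 0.07 in Rh30 and 0.03 in Rh41. Their summed signal was 10.92 to 11.03 with DMSO and 11.01 to 11.16 with QC6352 in Rh30, and 10.63 to 10.72 against 10.69 to 10.76 in Rh41. PTPRC, the leukocyte antigen CD45, averaged 3.74 and 3.77 in the Rh30 groups and SPI1, the myeloid factor PU.1, 5.24 and 5.07. PTPRC thus lay within the range of the background medians in both groups. Of 6 measured genes within 20000 bases of CD68, MPDU1, FXR2 and SENP3 rose in Rh30, where 19.9% of all genes rose and 36.3% changed. TNFSF12-TNFSF13, TNFSF13 and SOX15 did not pass (0.06, 0.28 and 0.10). MPDU1, a glycosylation gene, differed by 0.65 in Rh30 (adjusted p = 0.000115) and 0.36 in Rh41 (adjusted p = 0.0308), and FXR2, of the fragile X protein family, by 0.74 in Rh30 (adjusted p = 4.36e-06) and 0.16 in Rh41 (adjusted p = 0.3). These neighbours were looked at after the values of CD68 were seen.

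Of the other membrane proteins, MCOLN1, LAMP1, LAMP2 and CD63 rose in Rh30. MCOLN1, the lysosomal calcium channel, was at 9.12, 9.28 and 9.24 with DMSO and at 10.14, 10.20 and 10.26 with QC6352, a difference of 0.98 ± 0.10 (adjusted p = 3.22e-07). In Rh41 it was at 9.0, 8.99 and 9.04 against 9.26, 9.31 and 9.32. The Rh41 arrays did not overlap either, but the difference of 0.29 ± 0.10 missed the threshold (adjusted p = 0.0578). LAMP2, which is needed for fusion with autophagosomes, read 9.66, 9.55 and 9.63 against 10.13, 10.11 and 10.18 in Rh30, and 9.30, 9.41 and 9.27 against 9.75, 9.84 and 9.78 in Rh41. It rose by 0.52 ± 0.09 and 0.46 ± 0.09, with no overlap in either line. SCARB2, or LIMP-2, which carries glucocerebrosidase to the lysosome, passed in Rh41 (0.42 ± 0.10) and not in Rh30 (0.15 ± 0.10), a contrast between the lines that itself missed the threshold (adjusted p = 0.212). NPC1, which exports cholesterol, passed in neither line.

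Among the hydrolases, cathepsin B, beta-glucuronidase and prosaposin rose in both lines. CTSB was at 9.22, 9.29 and 9.49 with DMSO and 10.16, 10.28 and 10.23 with QC6352 in Rh30, and at 9.77, 9.81 and 9.79 against 10.34, 10.32 and 10.40 in Rh41. It rose by 0.89 ± 0.09 and 0.56 ± 0.09. GUSB, beta-glucuronidase, was at 8.97, 9.10 and 9.27 against 9.91, 10.12 and 9.98 in Rh30, and at 8.63, 8.63 and 8.47 against 8.91, 8.96 and 8.97 in Rh41. Its rises were 0.89 ± 0.11 and 0.37 ± 0.11, with no overlap in either line. PSAP, the precursor of the saposins that aid lipid hydrolases, was at 9.89, 9.93 and 9.76 against 10.49, 10.66 and 10.49 in Rh30, and at 10.37, 10.39 and 10.34 against 10.61, 10.75 and 10.69 in Rh41, rises of 0.69 ± 0.09 and 0.32 ± 0.09.

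Cathepsin F (CTSF) rose by 0.74 ± 0.14 in Rh30, cathepsin A (CTSA), which protects neuraminidase, by 0.64 ± 0.10, and progranulin (GRN) by 0.61 ± 0.12. Cathepsin D (CTSD), the alpha-glucosidase GAA, the alpha-galactosidase GLA and the tripeptidyl peptidase TPP1 also rose in Rh30. TPP1 overlapped between groups, at 9.29, 9.44 and 9.65 against 9.59, 9.82 and 9.78. None of these 7 passed in Rh41. Cathepsin L (CTSL), cathepsin Z (CTSZ) and the hexosaminidase subunit HEXA passed in neither line.

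All 4 V-ATPase members rose in Rh30. ATP6V1A, the catalytic subunit, was at 7.98, 8.24 and 8.02 with DMSO and 8.48, 8.66 and 8.57 with QC6352, and at 8.05, 8.0 and 8.06 against 8.23, 8.38 and 8.38 in Rh41. It rose by 0.49 ± 0.10 in Rh30 and by 0.30 ± 0.10 in Rh41. ATP6V1H, a regulatory subunit, was at 5.65, 6.11 and 6.03 against 6.21, 6.75 and 6.52 in Rh30 and at 6.91, 6.77 and 7.02 against 7.54, 7.69 and 7.55 in Rh41. It had the widest error of these rises, 0.56 ± 0.20 and 0.69 ± 0.20. ATP6V0D1 and the accessory subunit ATP6AP1 rose in Rh30 and did not pass in Rh41. The 17 other V-ATPase subunits were less uniform. In Rh30, 6 were higher and 4 lower (35.3% and 23.5%, against 19.9% and 16.5% of all genes), with a median of 0.19. ATP6V1D at 1.30 ± 0.17 and ATP6V0B at 0.93 ± 0.10 led upward and ATP6V1B1 at -0.96 ± 0.13 downward. In Rh41, 0 were higher and 2 were lower (11.8%), ATP6V1B1 at -1.17 ± 0.13 and ATP6V0A2 at -0.41 ± 0.10. There 10.9% of all genes were higher and 8.8% lower, and 5 of the 17 had an unadjusted p under 0.05 in limma.

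Of the transcription factors, TFE3 rose with QC6352 in Rh30 and neither relative passed. TFE3 was at 8.48, 8.66 and 8.75 with DMSO and at 9.07, 9.17 and 9.31 with QC6352, a difference of 0.55 ± 0.11. TFEB read 3.54 to 4.35 over all 20 arrays, near the background medians, so its level could not be followed here. MITF, the melanocyte member of the family, differed by -0.24 ± 0.19 in Rh30 and -0.22 ± 0.19 in Rh41. Of 5 melanocyte markers 1 (20%, against 19.9% of all genes) rose in Rh30, PMEL by 1.23 ± 0.16. In Rh41 0 passed, against 19.7% of all genes (0 at an unadjusted p under 0.05 in limma).

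The receptors p62 and optineurin rose in both lines. SQSTM1, the gene of p62, was at 10.04, 10.03 and 10.04 with DMSO and at 10.62, 10.69 and 10.59 with QC6352 in Rh30, and at 9.64, 9.69 and 9.49 against 9.91, 9.96 and 9.93 in Rh41. The rises were 0.59 ± 0.09 and 0.33 ± 0.09. OPTN, which acts in mitophagy, was at 7.89, 8.03 and 7.97 against 8.40, 8.54 and 8.51 in Rh30 and at 6.33, 6.10 and 6.39 against 6.42, 6.75 and 6.59 in Rh41. Its rises were 0.52 ± 0.10 and 0.31 ± 0.10. NBR1, related to p62, differed by -0.21 ± 0.11 and 0.18 ± 0.11 and passed in neither line. Of the ATG8 genes, MAP1LC3B (LC3B) and GABARAP rose in Rh30, and GABARAPL1 and GABARAPL2 did not pass.

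The Beclin 1 complex held a rise and a fall. BECN1 was at 9.14, 9.05 and 9.11 with DMSO and 9.65, 9.75 and 9.65 with QC6352 in Rh30, and at 9.50, 9.47 and 9.56 against 9.85, 9.85 and 9.78 in Rh41. It rose by 0.58 ± 0.08 and 0.31 ± 0.08. UVRAG, a Beclin 1 partner, was at 8.74, 8.93 and 8.84 with DMSO and 7.71, 7.84 and 7.87 with QC6352 in Rh30, and fell by 1.04 ± 0.12 on the log2 scale (adjusted p = 8.39e-07). In Rh41 it was at 7.67, 7.58 and 7.87 against 7.67, 8.09 and 8.02. Those groups overlapped, and the Rh41 arrays with DMSO already lay at the level of Rh30 with QC6352. WIPI1, a phosphoinositide-binding protein of early autophagosomes, fell by 0.25 ± 0.09 in Rh30. ULK1, ATG7 and the scramblase ATG9A rose in Rh30, and ATG5 passed in neither line.

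**Figure D2:**
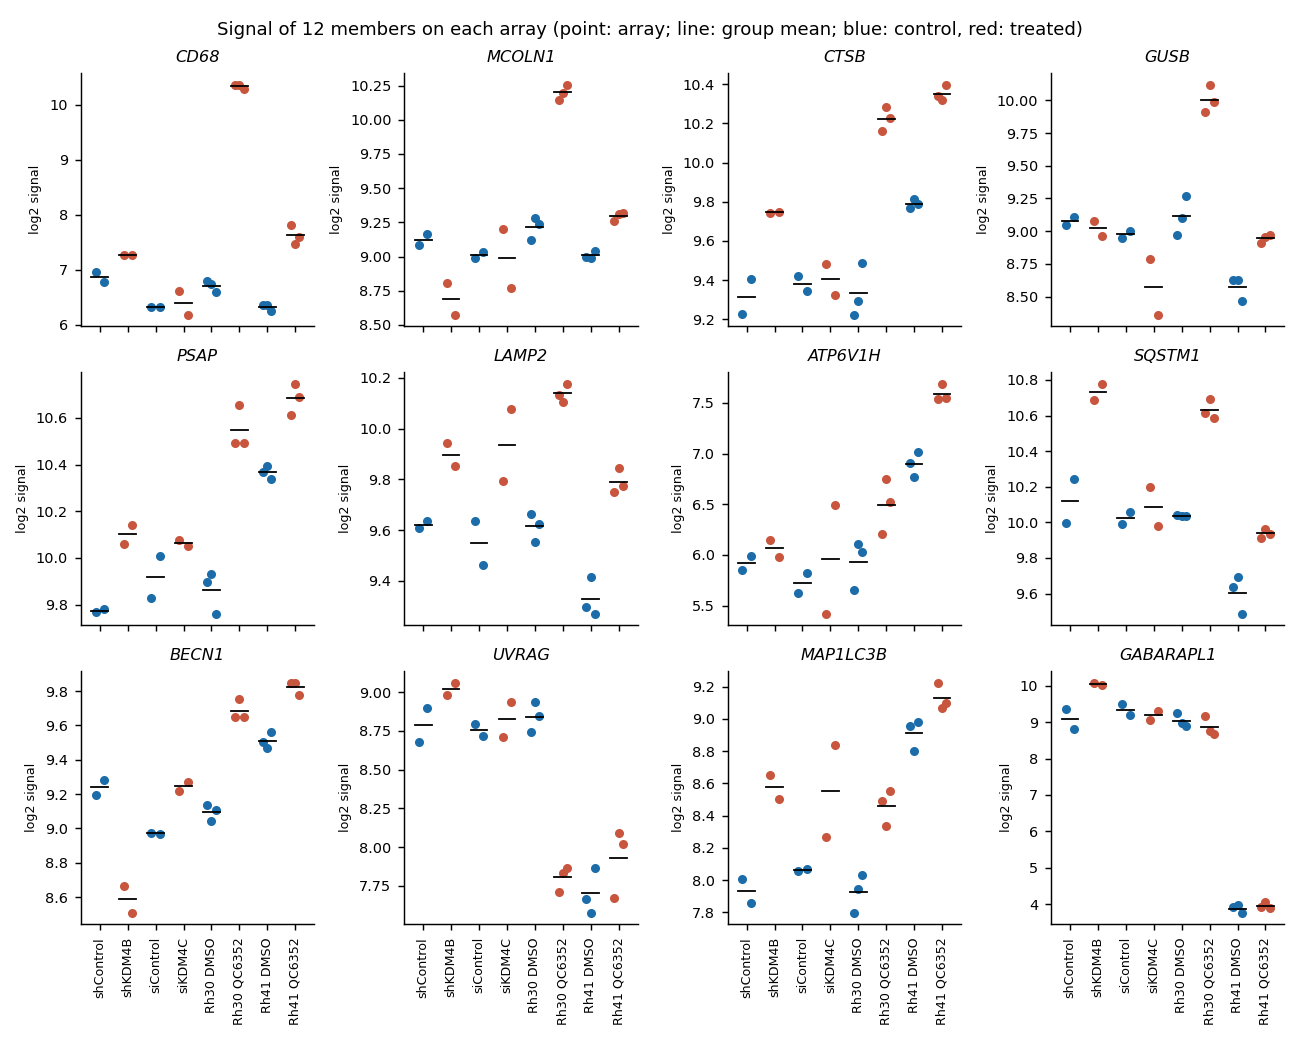
Log2 signal of 12 members on every array, by group, with points for arrays and lines for group means; each panel has its own axis. CD68 is near 10.3 in the 3 Rh30 arrays titled QC6352 and under 7.9 in all others, and GABARAPL1 is near 4 in all 6 Rh41 arrays.

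In Rh41, where the labels do not conflict, 11 of the 41 members rose with QC6352 and 0 fell (14 at an unadjusted p under 0.05 in limma). Over all genes, 10.9% rose, 8.8% fell and 19.7% changed. The median difference was 0.15 for the members and 0.02 for all genes. By role, 3 of 7 membrane proteins, 3 of 13 hydrolases, 2 of 4 pump subunits, 2 of 3 receptors and 1 of 7 machinery genes rose, and none of the transcription factors or ATG8 genes passed. By sample name 3 members passed, against 8.69% of all genes. That grouping leaves the Rh41 groups as they are and changes the spread shared with Rh30. With only the arrays whose labels agree, 11 rose and 10 of them were the same genes, where 23.5% of all genes were called. Without replicate 2 of QC6352, 5 rose and 1 fell, against 15.2% of all genes called. Without any other of the 6 arrays 8 to 12 rose and 0 fell, against 15% to 15.7% of all genes. BECN1, CD68, CTSB, LAMP2 and SCARB2 were called in each of these fits.

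CD68, LAMP2, CTSB, GUSB, PSAP, ATP6V1H, ATP6V1A, SQSTM1, OPTN and BECN1 rose in both lines. These 10 genes are 33.3% of the 30 members called in Rh30 and 90.9% of the 11 called in Rh41. Over all genes 6.3% rose in both lines, and these were 17.3% of the calls in Rh30 and 32% of those in Rh41. No member moved past the threshold in opposite directions.

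The response to QC6352 differed between the lines for 13 members by the test of the difference itself. The response of Rh41 was the lower for 12 of them and the higher for 1, against 9.45% and 10.5% of all genes and 20% in either direction. The median difference of responses was -0.25 for the members and -0.03 for all genes. CD68 led, with -2.31 ± 0.16, followed by CTSF at -0.93 ± 0.20, GLA at -0.71 ± 0.14, MCOLN1 at -0.70 ± 0.15 and CTSA at -0.55 ± 0.13. CTSF has a low signal, with means of 4.78 with DMSO and 4.58 with QC6352 in Rh41. A filter on the lowest 40% of genes left it out. GLA had opposite signs in the lines, 0.47 ± 0.10 in Rh30 and -0.23 ± 0.10 in Rh41, where it missed the threshold. UVRAG was the member whose response was higher in Rh41, by 1.26 ± 0.16. For LAMP2 the difference of responses was -0.06 ± 0.13 and for ATP6V1H 0.13 ± 0.28, neither past the threshold. This test uses the same arrays as the responses in each line. Leaving out an array left 8 to 12 members called, against 16.3% to 19.2% of all genes. The count was 8 in each fit without DMSO replicate 1 or QC6352 replicate 2 in Rh30, or DMSO replicate 1 or 2 in Rh41. By sample name 1 member passed the test of the difference, CTSB, with a value of 0.70 and the opposite sign. There 4.31% of all genes passed.

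**Figure D3:**
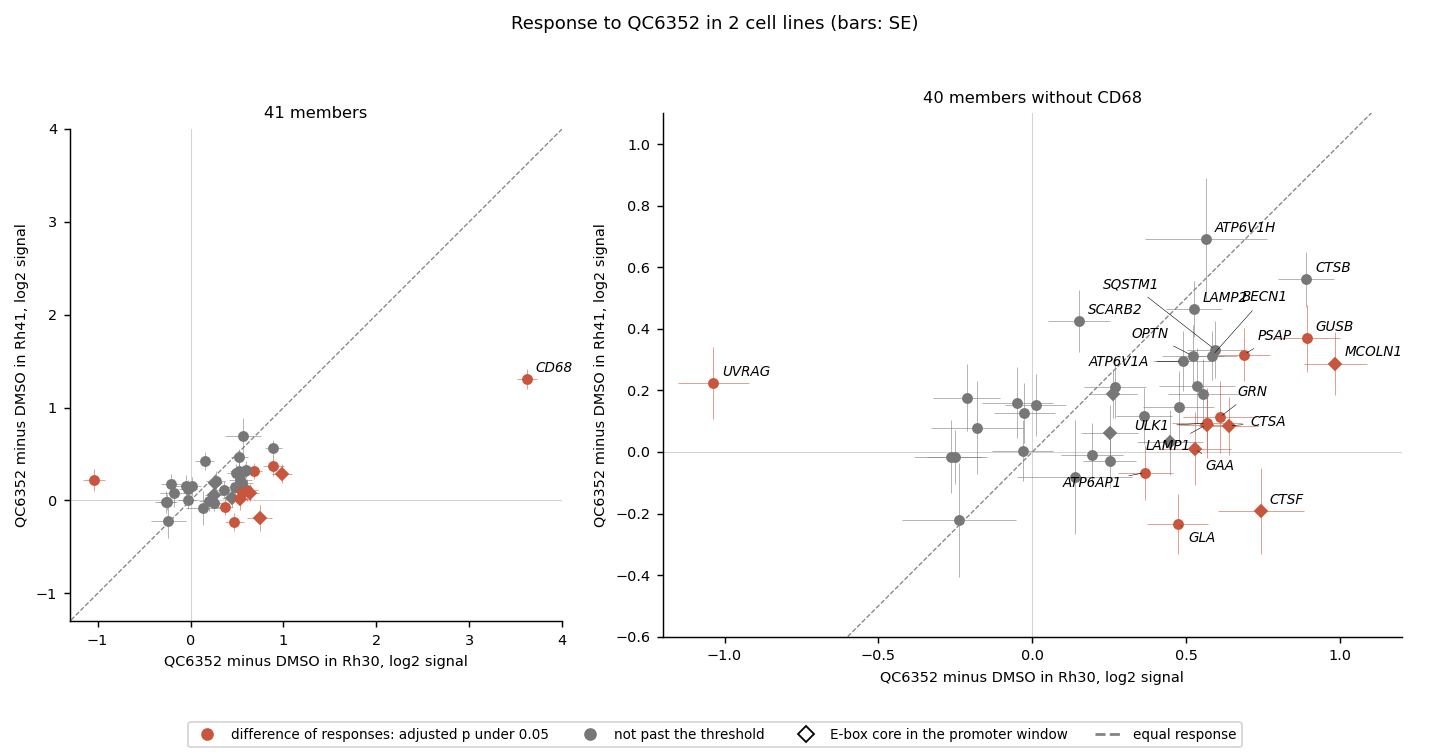
Response of each member to QC6352 in Rh30 (x axis) and Rh41 (y axis), log2, with bars for the SE; red marks an adjusted p under 0.05 for the difference of the responses, diamonds mark CACGTG in the promoter window and the dashed line marks equal responses. CD68 (3.62 and 1.31) is left out of the right panel, where most red points lie below the line.

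The members with CACGTG in their promoter window, shown above for 5 of 8, were called more often in Rh30 than in Rh41, which was not tested as such. All 8 were higher in Rh30, with differences of 0.25 to 0.98 and a median of 0.55. In Rh41 0 of the 8 passed, with a range of -0.19 to 0.29 and a median of 0.07. MCOLN1 and CD63 had 95% intervals above 0 there before adjustment, and each was called in Rh41 under other settings. MCOLN1 passed with the compared arrays alone (adjusted p = 0.0167) and with agreeing labels (adjusted p = 0.0277), CD63 with quantile normalization (adjusted p = 0.00614), and both with the filter on low genes or with trend and robust. In Rh30 ATP6V0D1 lost its call in each of the 6 fits without an array, with the replicate block (adjusted p = 0.0727) and with the compared arrays alone (adjusted p = 0.08), as CD63 did with the latter (adjusted p = 0.0651). In Rh41 the upper end of the 95% interval lay at 0.28 for LAMP1, 0.28 for CTSA, 0.10 for CTSF, 0.26 for GAA and 0.50 for MCOLN1. It lay there at 0.35 for CD63, 0.25 for CTSD and 0.26 for ATP6V0D1. Of the 26 members with a window but no match, 15 were higher in Rh30 and 6 in Rh41, CD68 among them, and of the 7 without a window 5 were higher in Rh30 and 5 in Rh41. The difference between the lines passed for 5 of 8 members with the motif and 6 of 26 without it, all with the lower response in Rh41, and for 2 of the 7 without a window, PSAP lower and UVRAG higher. Over all genes 21.1% of 1538 genes with the motif and 20% of 12712 genes without it were higher in Rh30, and 23.1% and 16.7% were lower. In Rh41 11% and 11.2% were higher, and 12.4% and 8.88% lower. The response of Rh41 was the lower for 10.6% and 9.46% of them and the higher for 13.9% and 10.8%.

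The KDM4B hairpin moved fewer members and in both directions. It raised 6 and lowered 4 of 41, against 5.26% and 6.31% of all genes and 11.6% in either direction, with a median difference of 0.15 for the members and 0.03 for all genes. By sample name 4 members passed, against 4.1% of all genes, and 3 in a fit of these 4 arrays alone, against 4.67%. Grouping by sample name leaves these 4 arrays in place and changes the shared spread. The rises were in ATG8 genes, a receptor, a transcription factor and hydrolases. GABARAPL1, a close relative of GABARAP, was at 9.37 and 8.81 with the control hairpin and at 10.08 and 10.02 with the KDM4B hairpin, a rise of 0.96 ± 0.18 (adjusted p = 0.00174, n = 2 and 2). MAP1LC3B was at 8.0 and 7.86 against 8.65 and 8.50 and rose by 0.64 ± 0.15. SQSTM1 was at 9.998 and 10.24 against 10.69 and 10.78 and rose by 0.61 ± 0.11. The groups did not overlap for any of these genes. TFE3 rose by 0.54 ± 0.14, GLA by 0.46 ± 0.12 and CTSB by 0.43 ± 0.11.

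BECN1 led the falls, at 9.20 and 9.28 with the control hairpin and 8.66 and 8.51 with the KDM4B hairpin, or -0.65 ± 0.10 (adjusted p = 0.000198). NBR1 was at 8.55 and 8.47 against 8.10 and 7.85 and fell by 0.54 ± 0.13. MCOLN1 fell by 0.43 ± 0.13, from 9.08 and 9.16 to 8.81 and 8.57, and ATP6V1A by 0.42 ± 0.12, from 7.85 and 7.96 to 7.53 and 7.43. The remaining 31 members lay between -0.22 and 0.39, the upper end being CD68, at 6.96 and 6.78 against 7.26 and 7.26 (adjusted p = 0.0725). Leaving out any of the 4 hairpin arrays leaves 1 array in a group, and the median of the members was then 0.12 to 0.16. That of all genes was 0.03. Most of the hairpin calls were lost in at least 1 of these fits.

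Set beside QC6352 in the same line, which differs in time and in agent and rests on other control arrays, 5 members were higher in both (SQSTM1, MAP1LC3B, TFE3, GLA and CTSB). BECN1, MCOLN1 and ATP6V1A were lower with the hairpin and higher with QC6352. GABARAPL1 rose with the hairpin (0.96 ± 0.18) and was at -0.18 ± 0.15 with QC6352 in Rh30, where it did not pass. Another 20 members rose and 2 fell with QC6352 and did not pass with the hairpin, and 9 passed in neither comparison. Of all genes, 19.9% rose and 16.5% fell with QC6352 in Rh30, and 5.26% rose and 6.31% fell with the hairpin. The shares of all genes called in both comparisons were not computed, so these counts do not set the members apart. Differences between these effects were not tested.

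The KDM4C siRNA moved 0 of 41 members past the threshold in limma (8 at an unadjusted p under 0.05), against 0.458% of all genes. Leaving out any of the 4 arrays leaves 1 array in a group, and the median of the members was then 0.01 to 0.10. That of all genes was 0.005 to 0.03. With all arrays, the members lay between -0.40 and 0.49 with a median of 0.03, against 0.02 for all genes. MAP1LC3B had the highest value, at 8.06 and 8.07 with the control siRNA and 8.27 and 8.84 with the KDM4C siRNA. Its difference of 0.49 ± 0.15 has a 95% interval of 0.17 to 0.81 without adjustment for the number of genes (adjusted p = 0.133). GUSB had the lowest, -0.40 ± 0.13, at 8.95 and 9.01 against 8.78 and 8.36. For these 2 members the siRNA groups did not overlap, but the spread within the treated group was wide. By sample name 0 members passed as well (7 at an unadjusted p under 0.05), and 0 of all genes.

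With DMSO alone the lines differed in most members. In Rh41 15 were higher and 17 lower than in Rh30, against 40.7% and 16.8% of all genes and 57.6% in either direction. The Rh41 arrays have higher medians, and the median difference over all genes was 0.19, against -0.05 for the members. With each array centred on its median, that over all genes became -0.07 and 12 members were higher and 21 lower. Quantile normalization gave the same 12 and 21, so that the share of higher members among those called was 46.9% as deposited and 36.4% after either step. BECN1, CTSB and HEXA were higher as deposited and lost that call, and ATP6V1A, MCOLN1, TFE3 and TFEB were lower after either step. TFEB lay near the background medians, which were 3.92 to 3.98 in the Rh30 arrays with DMSO and 3.91 to 3.99 in those of Rh41. Centring takes more from the Rh41 arrays, with their higher medians, so the call of TFEB is not read as a lower level. By sample name 16 were higher and 13 lower, and 61.8% of all genes passed in either direction. These DMSO arrays are also the controls of the drug comparisons.

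GABARAPL1 stood far from the others. It was at 9.24, 8.99 and 8.91 in the Rh30 arrays with DMSO and at 3.91, 3.97 and 3.76 in those of Rh41, a difference of -5.17 ± 0.15 (adjusted p = 1.53e-15). With QC6352 the Rh41 arrays read 3.91, 4.06 and 3.91. All 6 Rh41 arrays thus lay near the background medians, while the 14 Rh30 arrays lay at 8.67 to 10.08. With a level near background the size of the difference is a lower limit, and the transcript was not shown to be absent. Its relatives differed in other ways, with MAP1LC3B higher in Rh41 by 0.99 ± 0.12, GABARAPL2 higher and GABARAP lower by 0.54 ± 0.09.

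OPTN was lower in Rh41 by -1.69 ± 0.10, UVRAG by -1.14 ± 0.12, ATP6V0D1 by -1.0 ± 0.09 and GLA by -0.91 ± 0.10. NPC1 was higher by 1.19 ± 0.10, ATP6V1H by 0.97 ± 0.20, ATG7 by 0.92 ± 0.11, CTSA by 0.79 ± 0.10 and MITF by 0.79 ± 0.19. None of the members named here changed direction after centring or quantile normalization. CD68 was slightly lower in Rh41 (-0.39 ± 0.11).

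**Figure D4:**
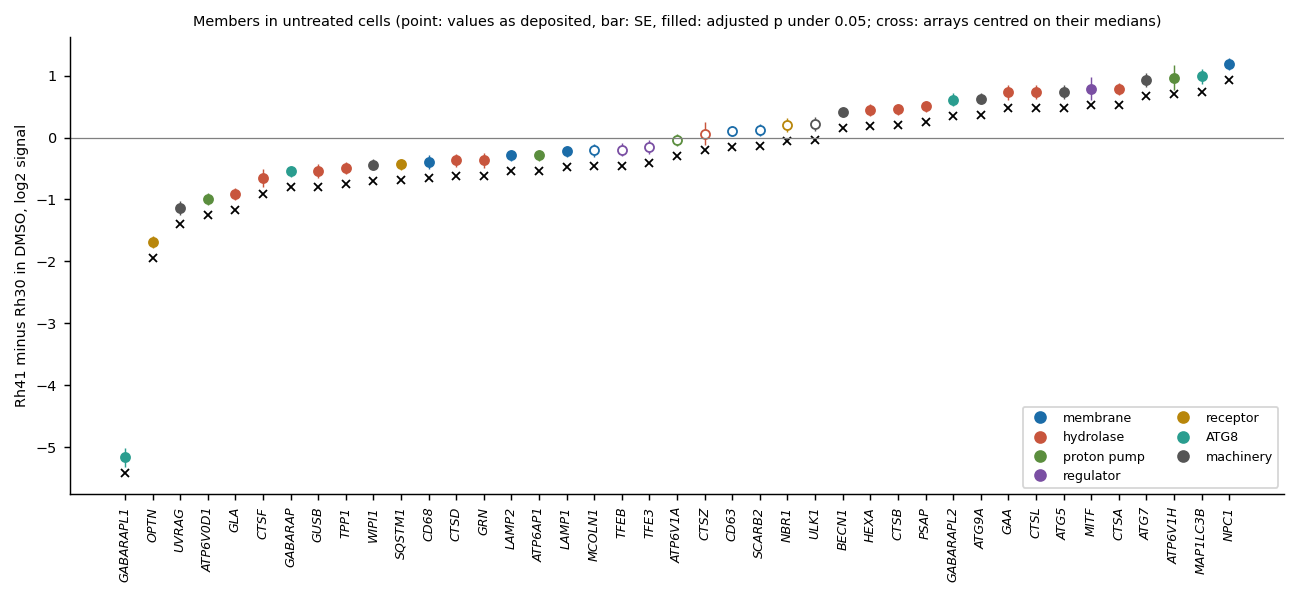
Difference of each member between Rh41 and Rh30 with DMSO, log2, sorted by value, with circles for values as deposited (bar: SE, filled: adjusted p under 0.05) and crosses after centring each array on its median. GABARAPL1 is at -5.17 and NPC1 at 1.19, and every cross lies below its circle.

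Other genes of the pathway, taken from lists that do not hold the members, moved in both directions. Over all genes 19.9% rose and 16.5% fell with QC6352 in Rh30, and 10.9% and 8.8% in Rh41. Of 43 further lysosomal enzymes and membrane proteins, 17 (39.5%) were higher and 11 (25.6%) lower with QC6352 in Rh30 (median 0.07). In Rh41 9 (20.9%) were higher and 3 (6.98%) lower (median 0.05). The cysteine protease CTSV rose by 1.96 ± 0.12 in Rh30 and 0.59 ± 0.12 in Rh41, the asparaginyl protease LGMN by 1.76 ± 0.09 in Rh30 and the sphingomyelinase SMPD1 by 1.25 ± 0.15 in Rh30. OSTM1, which partners a lysosomal chloride transporter, fell by 1.21 ± 0.14 and the glucosaminidase NAGLU by 0.81 ± 0.11 in Rh30. With the hairpin 2 of the 43 were higher and 1 lower (4.65% and 2.33%, against 5.26% and 6.31% of all genes). The sulfatase IDS, at 0.72 ± 0.11, and GGH, at -0.88 ± 0.15, were among them.

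Of 39 further autophagy genes, 15 (38.5%) rose and 7 (17.9%) fell with QC6352 in Rh30 (median 0.13). In Rh41 5 (12.8%) rose and 2 (5.13%) fell (median 0.06). Over all genes 19.9% rose and 16.5% fell in Rh30, and 10.9% and 8.8% in Rh41. TP53INP2, which binds ATG8 proteins, rose by 2.05 ± 0.15 in Rh30, and ATG16L1, which directs ATG8 lipidation, by 1.35 ± 0.12 in Rh30 and 0.61 ± 0.12 in Rh41. The E2-like ATG10 fell by 1.70 ± 0.22 in Rh30, and the lipid transfer gene ATG2B by 1.22 ± 0.14 in Rh30 and 0.54 ± 0.14 in Rh41. The hairpin raised 3 and lowered 6 of the 39 (7.69% and 15.4%, against 5.26% and 6.31% of all genes). The protease gene ATG4C was at -1.11 ± 0.14 and the E2-like ATG3 at -1.02 ± 0.11. Of 29 genes of mTORC1 and its lysosomal regulators, 8 (27.6%) rose and 7 (24.1%) fell with QC6352 in Rh30 (median -0.12). In Rh41 5 (17.2%) rose and 5 (17.2%) fell (median 0.07). The stress-induced leucine sensor SESN2 rose by 1.37 ± 0.10 in Rh30, its relative SESN3 rose by 1.12 ± 0.12 in Rh41, and DEPDC5 of the GATOR1 complex rose in both, by 0.91 ± 0.14 and 0.60 ± 0.14.

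The muscle lineage markers moved with the drug and with the hairpin in Rh30. Of 10 measured, 6 fell and 0 rose with QC6352 in Rh30 (median -0.83), against 16.5% and 19.9% of all genes. MYOG, the gene of myogenin, was at -2.63 ± 0.10. The summed signal of the 10 markers was 14.31 to 14.33 with DMSO and 13.52 to 13.60 with QC6352. In Rh41, where 11 members rose, 1 marker rose and 1 fell (median 0.07), against 10.9% and 8.8% of all genes. The summed signal there was 14.10 to 14.19 against 14.14 to 14.23. With the KDM4B hairpin 5 of the 10 fell and 0 rose (median -0.39), against 6.31% and 5.26% of all genes. The summed signal was 14.22 to 14.29 with the control hairpin and 13.95 to 13.99 with the KDM4B hairpin. The part of the muscle program in the values of the members was not tested.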

How the data were processed

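Total RNA was labelled from an input of 125 ng for Clariom S arrays. The authors deposited a log2 signal for each probe set, used here unchanged. GCOS is the tool in the submitters' processing notes. Its version, the background correction and the normalization were not given in the sources used. Of 24351 probe sets, 17709 carry 1 gene symbol and 6642 none, and leaving out 22 second probe sets gave 17687 genes. The test was limma (version 3.58.1, R 4.3.3), with lmFit and eBayes on 8 group means by title over all 20 arrays, 12 residual degrees of freedom and Benjamini-Hochberg adjustment over all genes. The script was tested on simulated data. The labels call the arrays of a group biological replicates, p values measure only their spread, and their number limits the precision.

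The members and the other lists were chosen with earlier results of these data known. Statistics are given for up to 10 members each way per comparison, and up to 3 genes each way of another list. Values of every array and their statistics are given for members called with the drug in both lines or changed at least 2-fold by a treatment. Further values and statistics are of members chosen after their values were seen. Alternatives were quantile normalization, median centring, a filter on the lowest 40% of genes, eBayes with trend and robust, the compared arrays alone, a replicate block, a 1.5-fold threshold, every probe set, groups by sample name, arrays with agreeing labels and leaving out each array. Same-numbered arrays correlated at -0.21 to 0.26 over the comparisons, so the numbers were not taken to pair them.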

Additional observations from a re-analysis of the deposited data

Results flagged for a closer look

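The response to QC6352 differed between the lines, by the interaction test in limma, for 13 members with groups by title. The response in Rh41 minus that in Rh30 was -2.31 for CD68, -0.93 for CTSF, -0.71 for GLA, -0.70 for MCOLN1, -0.55 for CTSA, -0.52 for GUSB, -0.52 for GAA, -0.50 for GRN, -0.48 for LAMP1, -0.47 for ULK1, -0.43 for ATP6AP1 and -0.37 for PSAP. It was 1.26 for UVRAG. CD68, GUSB and PSAP rose in both lines, and by more in Rh30. CD68, CTSA, CTSF, GLA, LAMP1, MCOLN1 and UVRAG were called in each of the 12 fits that left out an array, whereas the other 6 lost the call in at least 1 of them. All 13 rest on Rh30 arrays whose labels conflict. By sample name the control siRNA group would hold CD68 at 6.60 and 10.36, and the SE of its difference between lines was 0.16 by title and 0.75 by sample name.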

How the results depend on the processing

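Quantile normalization and median centring left the count of called members within 1.5 times in every comparison. In the KDM4B hairpin comparison 10 members were called, 3 with the compared arrays alone, 4 with a 1.5-fold threshold added, 4 with groups by sample name, and 4 (without shControl replicate 1) to 7 without an array. With the hairpin, 11.6% of all genes were called. That share fell as well, to 4.67% with the compared arrays alone, 6.28% with the 1.5-fold threshold and 4.1% by sample name. In the KDM4C siRNA comparison 0 were called, 1 (LAMP2) with the lowest 40% of genes left out and 1 with trend and robust. Those settings called 3.21% and 2.48% of all genes. Leaving out a hairpin or siRNA array leaves 1 array in a group. The calls in both comparisons changed with the array left out. The hairpin counts of these fits are therefore not read as a result about the members, and the siRNA counts are not given. With QC6352 in Rh30, 30 fell to 10 at 1.5-fold and 0 by sample name, against 18.9% and 0.503% of all genes. In every fit without an array, 25 of the 30 were kept. With QC6352 in Rh41, 11 became 2 at 1.5-fold and 3 by sample name, against 7.84% and 8.69% of all genes. Without an array 6 to 12 were called, against 15% to 15.7%. The 6, without Rh41 QC6352 replicate 2, were 5 higher and 1 lower. For the difference between lines, 13 became 5 at 1.5-fold and 1 by sample name, against 14.2% and 4.31% of all genes. Without an array 8 to 12 were called, against 16.3% to 19.2%. Between the lines with DMSO, 32 became 17 at 1.5-fold, against 34.3% of all genes. Fewer genes can pass an added fold threshold by construction, and the other causes were not tested.

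With the replicate number as a block, 8 members were called with the hairpin and 0 with the siRNA. With QC6352, 26 were called in Rh30, 9 in Rh41 and 8 for the difference between lines. Over all genes 9.16%, 0.107%, 34.9%, 17.5% and 17.7% were called, in that order. No pairing of the arrays is shown. With the siRNA numbers crossed, chosen after seeing the data, 0 members and 46 genes were called, against 19 genes with the block and 81 without it.

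By sample name, none of the following Rh30 values for QC6352 passed, and all had the opposite sign to those by title: LAMP1 -0.15, MCOLN1 -0.017, CTSA -0.38, CTSB -0.14, CTSD -0.13, GLA -0.027, GUSB -0.10, PSAP -0.013, GRN -0.27, ATP6V0D1 -0.17, ATP6V1A -0.28, ATP6AP1 -0.13, TFE3 -0.13, SQSTM1 -0.064, OPTN -0.23, WIPI1 0.026, ATG9A -0.012 and UVRAG 0.13. For the difference between lines the sign turned for CD68 at 1.16, LAMP1 at 0.24, MCOLN1 at 0.30, CTSA at 0.46, CTSB at 0.70 (adjusted p = 0.0446, from 0.0807 by title), GUSB at 0.47, PSAP at 0.33, GRN at 0.39 and ATP6AP1 at 0.067. Signals near background, as those of TFEB in both lines and GABARAPL1 in Rh41, limit what could be seen.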
